A study of Mus musculus with 36 samples.

Results

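Bone marrow-derived dendritic cells (DCs) grown with soluble thrombomodulin (sTM) were compared with untreated DCs, both without any sorting. The comparison took in every unsorted array of the series, 16 of 36 arrays, of which 8 were sTM-treated and 8 were untreated. Both groups were cultures of bone marrow cells from Balb/c mice of 10 to 12 weeks, grown for 6 days with 100 ng/ml of GM-CSF. The sTM-treated cultures received 200 nM of a recombinant human protein made of the extracellular domains of thrombomodulin from day 4, and the untreated cultures did not. Experiment 1 had 4 arrays of each group, and experiments 2 and 3 had 2 of each. The remaining 20 arrays held TM+ and TM- DCs sorted on surface thrombomodulin. Arrays were named by experiment and replicate number, so that 1-3 is replicate 3 of experiment 1, and the arrays of the same name in the 2 groups made up 8 pairs. The labels call the arrays biological replicates without saying whether these were separate mice or cultures, so p-values measured the spread between these arrays, part of which may be technical. The added protein was human and the cells were from mouse, and a culture of this kind holds a mixture of bone marrow-derived cells.

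Thrombomodulin is a transmembrane glycoprotein, best known from endothelium, that binds thrombin and turns it from a clotting enzyme into an activator of protein C. Activated protein C acts on cells through the endothelial protein C receptor, and the lectin-like domain of thrombomodulin is itself known to dampen inflammation. DCs mature when pattern recognition receptors or cytokines switch on NF-kB and type I interferon signalling, which brings out costimulatory molecules, IL-6, IL-12, TNF and chemokines, while GM-CSF keeps them alive and supports granulocyte and macrophage growth in the same culture.

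All levels below are log2 of the deposited array intensity, differences are sTM-treated minus untreated on that scale, and 1 unit is a doubling. Levels of different probes cannot be ranked against each other, so marker levels are given side by side for the 2 groups only. The DC genes Itgax and H2-Aa averaged 11.97 and 12.24 in sTM-treated arrays and 12.02 and 11.99 in untreated arrays, and the macrophage genes Adgre1 and Lyz2 averaged 12.25 and 13.14 in sTM-treated arrays and 12.42 and 13.05 in untreated arrays. The mean level of 21 conventional DC markers was between 8.64 and 9.12 over sTM-treated arrays and between 8.61 and 9.16 over untreated arrays. That of 11 T and NK cell markers was between 5.72 and 5.88 over sTM-treated arrays and between 5.51 and 6.01 over untreated arrays. The 21 DC markers were mixed, with a mean difference above 0 for 12 and below 0 for 9. Kmo and Itgae were higher in all 8 pairs (0.57 and 0.58), and Batf3 and Ccr7 were lower in all 8 (-0.31 each). By the 4-set fit described next, 2 of the 21 were called higher and 0 lower, and 0 of the 11 were called. Over all genes, 0.301% were called higher and 0.873% lower in that fit.

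The arrays of experiment 1 fell into 2 blocks. Replicates 1 and 2 correlated with each other at 0.989 to 0.993 within a treatment, and replicates 3 and 4 did likewise, but across these blocks arrays of the same treatment correlated at 0.940 to 0.973, a range close to that of arrays from different experiments (0.941 to 0.975). Both treatments were in each block and the labels name no such batch, so each result was also fitted with 4 sets of arrays (replicates 1 and 2 of experiment 1, replicates 3 and 4 of experiment 1, experiment 2, experiment 3) as a fixed term. That 4-set fit was chosen after seeing the data.

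In sTM-treated cultures most cytokine, NF-kB and interferon-stimulated genes had a mean difference below 0 and most cell division and granulocyte genes one above 0, but no gene passed the test with experiment as a random block. Over all genes, 10740 had a mean difference above 0 and 9198 below 0. In that experiment-block fit (limma, Benjamini-Hochberg adjustment over 19938 genes) 0 genes were higher and 0 were lower at an adjusted p of 0.05 (0% of genes in each direction). At an unadjusted p of 0.05, 389 genes (1.95%) were higher and 551 (2.76%) were lower. The same direction in all 8 pairs was seen for 193 higher genes (0.968%) and 233 lower genes (1.17%). Only Ccl5 had all sTM-treated arrays below all untreated arrays (0.00502% of genes), and no gene had all sTM-treated arrays above (0%).

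With the 4 sets as a fixed term, 60 genes (0.301%) were higher and 174 (0.873%) were lower in sTM-treated DCs. Of these 234 genes, 230 had the same direction in the means of all 3 experiments, 120 had it in all 8 pairs, and 185 had an unadjusted p under 0.05 in the experiment-block fit. The fit takes 1 common effect for all sets, yet for 58 of the 234 genes the effect differed between the 4 sets. The test was limma's F test of treatment by set at an adjusted p under 0.05, which 0.998% of all genes passed. These calls rested on part of the arrays. Without replicates 1 and 2 of experiment 1 there were 0 higher and 4 lower genes, without experiment 3 there were 2 higher and 24 lower, and without replicates 3 and 4 of experiment 1 there were 179 higher and 344 lower. Leaving out 1 array at a time gave 11 to 112 higher genes and 46 to 318 lower genes. With the 8 pairs as a replicate block there were 11 higher and 42 lower genes, and with the 4 sets as a random block 6 and 32. With experiment as a fixed factor 0 genes were called in either direction. Testing the 3 experiment differences against 0, which takes the experiment as the unit, also gave 0 higher and 0 lower genes. The 4-set calls of genes and lists below come from the fit without the pairs.

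The number of genes called differed widely between the 4 sets. Within replicates 1 and 2 of experiment 1, 314 genes (1.57%) were higher and 602 (3.02%) lower at an adjusted p of 0.05. Experiment 3 gave 104 higher (0.522%) and 156 lower (0.782%), and experiment 2 gave 29 higher (0.145%) and 56 lower (0.281%). Replicates 3 and 4 of experiment 1 gave 0 in both directions by the same limma fit, with 299 higher and 510 lower at an unadjusted p of 0.05. Genes called both in replicates 1 and 2 of experiment 1 and in experiment 3 numbered 137, which is 15% of the first list and 52.7% of the second, and 135 of the 137 had the same direction in both. The count of genes that differed by more than 1 unit within a pair ranged from 17 in pair 1-4 to 388 in pair 1-2.

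**Figure D1:**
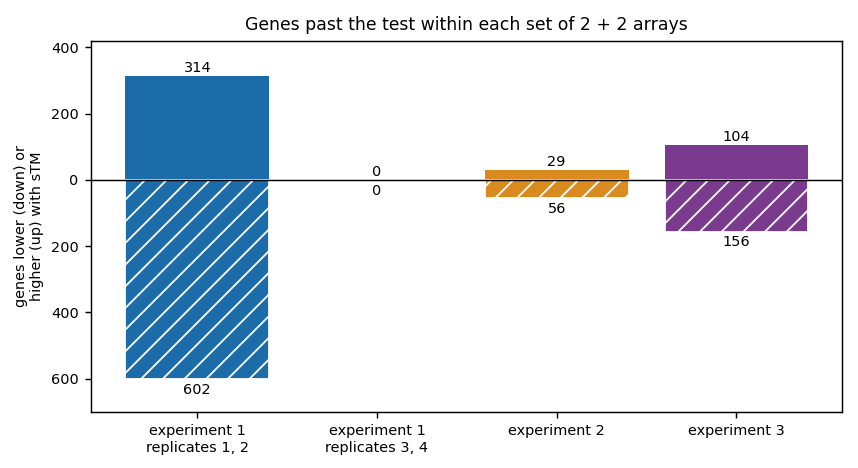
Number of genes higher and lower in sTM-treated than in untreated unsorted DCs at an adjusted p under 0.05 within each of the 4 sets of arrays (limma, one estimate of the spread). The counts are largest in replicates 1 and 2 of experiment 1 (314 higher, 602 lower) and are 0 in replicates 3 and 4 of the same experiment.

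Among the 12 genes leading in each direction by the experiment-block fit and moving the same way in all 8 pairs, the lower ones included chemokine, cytokine and RNA sensor genes. Cxcl5, a chemokine that draws neutrophils, had a lowest, median and highest level of 7.27, 7.47 and 8.27 in sTM-treated arrays, against 7.89, 8.74 and 9.35 in untreated arrays. Its difference was -1.02 ± 0.17 (SE), with an adjusted p of 0.139 in the experiment-block fit and 0.001 in the 4-set fit. Here and below, an SE beside 2 adjusted p-values is that of the experiment-block fit, whose p comes first. The 4-set fit had its own error, given only where stated. The groups overlapped, but each sTM-treated array was below the untreated array of its own pair. Penk, which encodes the opioid peptide precursor proenkephalin, had levels of 8.43, 9.52 and 10.36 in sTM-treated arrays and 10.21, 10.83 and 11.08 in untreated arrays. The difference was -1.30 ± 0.23 (SE; adjusted p = 0.139 and 0.00279 in the same 2 fits). Its size was uneven, at -2.21 in replicates 1 and 2 of experiment 1, -0.54 in replicates 3 and 4, -0.49 in experiment 2 and -1.98 in experiment 3.

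Mir155 is the gene of the microRNA miR-155, which is induced in activated myeloid cells and represses negative regulators of inflammatory signalling. Its lowest, median and highest levels were 8.24, 9.02 and 9.72 in sTM-treated arrays, against 9.25, 10.13 and 10.31 in untreated arrays, a difference of -0.98 ± 0.17 (SE; adjusted p = 0.139 in the experiment-block fit, 0.00279 in the 4-set fit). The array measured the transcript of the gene and not its mature arms. Both arms are shown because their seeds, bases 2 to 8 in capitals, set which messages they can pair with (RefSeq, GRCm38.p6, plus strand, chr16:84714143-84714165 for the 5p arm and chr16:84714182-84714202 for the 3p arm).
miR-155-5p: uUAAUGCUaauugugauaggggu
miR-155-3p: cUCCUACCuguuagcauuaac
The arms have different seeds and so belong to different seed families.

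Tnf, a central inflammatory cytokine, had levels of 8.37, 8.61 and 9.45 in sTM-treated arrays and 9.29, 9.48 and 9.82 in untreated arrays (difference -0.72 ± 0.14 SE; adjusted p = 0.259 and 0.00279). In 6 of the 8 sTM-treated arrays it was below every untreated array, and the exceptions were replicates 1-3 and 1-4. Ereg, the growth factor epiregulin, differed by -1.36 ± 0.31 (SE; adjusted p = 0.568 and 0.00323), from -0.37 in replicates 3 and 4 of experiment 1 to -2.23 in replicates 1 and 2. Serpinb9b, of the family that inhibits granule proteases, differed by -0.98, and Syt7, a calcium sensor of vesicle release, by -0.84. Ifih1, the cytosolic RNA sensor MDA5, differed by -0.73 ± 0.15 (SE; adjusted p = 0.349 and 0.00411). Eng, a TGF-β co-receptor, and Ccnd2, the G1 cyclin D2, differed by -0.47 and -0.45, and Mfap3l and Tmppe completed the 12 with -0.49 and -0.34. All 12 of these genes passed the 4-set test.

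The 12 leading higher genes were smaller changes, between 0.34 and 0.62. Ccnf, the cyclin F of a ubiquitin ligase that acts in S and G2 phase, was the one with the largest difference, 0.62 ± 0.15 (SE; adjusted p = 0.585 and 0.00434). Its levels were 7.31, 7.85 and 8.68 in sTM-treated arrays, against 6.50, 7.39 and 7.92 in untreated arrays. Itgae, the integrin chain CD103 carried by some DCs, had 6.17, 6.34 and 7.90 in sTM-treated arrays and 5.81, 6.01 and 6.77 in untreated arrays (difference 0.58, adjusted p = 0.735 and 0.011). Its difference was 1.19 in experiment 3 and 0.24 to 0.62 in the other sets. Among the others were BC061237, Ccdc69, Cmss1, Syngr1, Olfr593, Clec1a, Gm9733, 2810408A11Rik and Tbx18, of which Olfr593, Clec1a, Gm9733 and Tbx18 did not pass the 4-set test either.

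The 4-set fit brought forward further genes, which were named after their values were seen. Hamp, the gene of the iron regulator hepcidin, had 7.39, 8.81 and 10.81 in sTM-treated arrays, against 8.98, 9.95 and 11.78 in untreated arrays (difference -1.21 ± 0.34 SE; adjusted p = 0.735 and 0.0169), and it was lower in all 8 pairs. The collagenase gene Mmp13 differed by -0.98, the lysyl hydroxylase gene Plod2 by -0.97 (adjusted p = 0.936 and 0.001) and the lysyl oxidase gene Lox by -1.11, where the sets ranged from -0.16 in replicates 3 and 4 of experiment 1 to -2.25 in experiment 3. All 3 act on the extracellular matrix or its collagen, and no list of such genes was tested. Among higher genes, Cenpa, the histone variant of centromeres, had 8.38, 9.33 and 9.88 in sTM-treated arrays, against 8.32, 8.63 and 9.02 in untreated arrays (difference 0.59 ± 0.20 SE; adjusted p = 0.932 and 0.00489) and was higher in all 8 pairs. Hal, which breaks down histidine, differed by 0.58 and was higher in 7 of 8.

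**Figure D2:**
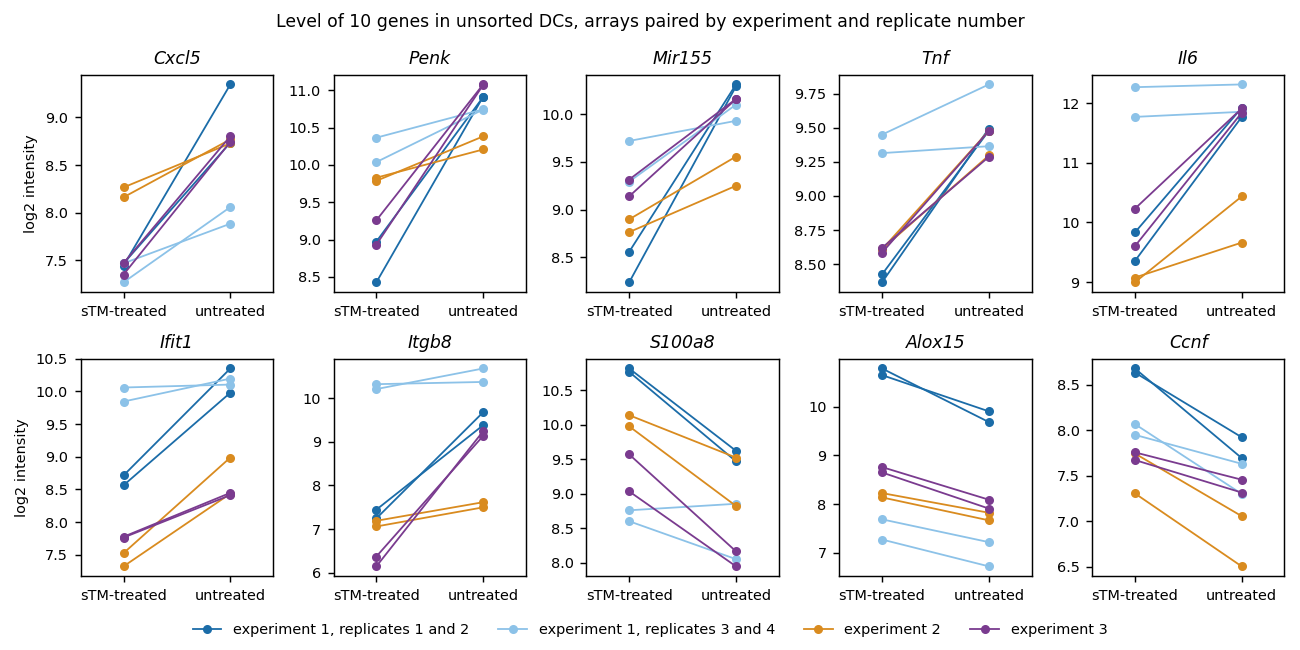
Levels (log2 intensity) of genes named in the text in each sTM-treated array (left) and untreated array (right), with lines joining the 8 pairs of the same experiment and replicate number. The lines of Cxcl5, Penk, Mir155 and Tnf all run lower in sTM-treated arrays, and their steepness differs between experiments.

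Of 27 cytokine genes measured, 26 had a mean difference below 0, and the median was -0.34 against 0.01 over all genes. The 4-set test called 8 lower and 0 higher (Il6, Tnf, Il12a, Il12b, Il1f6, Csf3, Il33, Tnfsf15), and 5 of the 27 were lower in all 8 pairs. Over all genes, 0.873% were lower and 0.301% higher by that test, and 1.17% were lower in all 8 pairs. Il6, the gene of the pleiotropic inflammatory cytokine IL-6, had levels of 8.995, 9.72 and 12.27 in sTM-treated arrays, against 9.66, 11.85 and 12.32 in untreated arrays. The difference was -1.32 ± 0.36 (SE; adjusted p = 0.735 and 0.00463), lower in all 8 pairs, with -0.07 in replicates 3 and 4 of experiment 1 and -2.25 in replicates 1 and 2. The IL-12 subunit genes Il12a and Il12b, which encode the p35 and p40 chains of the Th1-driving cytokine, differed by -0.73 and -0.80 and were lower in 7 and 6 of the 8 pairs. Il10, the gene of the regulatory cytokine IL-10, differed by -0.06, higher in 4 pairs and lower in 4.

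Of 25 chemokine genes, 20 were below 0, the median was -0.21, and 5 were lower and 0 higher by the 4-set test (Ccl2, Ccl4, Ccl22, Cxcl1, Cxcl5). The shares of all genes in that test were 0.873% lower and 0.301% higher. Ccl2, which draws monocytes, differed by -0.49 ± 0.13 (SE; adjusted p = 0.717 and 0.00909), with values of -0.29 to -0.62 in the 4 sets and lower in all 8 pairs. Ccl4 and Cxcl1 differed by -0.76 and -0.80, lower in 7 of 8 pairs each. Ccl5, a T-cell attracting chemokine, had 12.82, 13.44 and 13.52 in sTM-treated arrays, against 13.52, 13.61 and 13.69 in untreated arrays (difference -0.30 ± 0.10 SE; adjusted p = 0.932 and 0.0989). Though its groups just failed to overlap, it passed neither test. Ccl5 was named after its values were seen.

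Of 42 interferon-stimulated genes measured, 41 were below 0, with a median of -0.45, and 18 were lower and 0 higher by the 4-set test. At an unadjusted p of 0.05 in the experiment-block fit, 27 were lower, and 16 were lower in all 8 pairs. For all genes the lower shares were 0.873% (4-set test), 2.76% (unadjusted p) and 1.17% (all 8 pairs). Ifit1, which binds foreign RNA, had levels of 7.32, 8.17 and 10.06 in sTM-treated arrays, against 8.41, 9.48 and 10.35 in untreated arrays (difference -0.92 ± 0.25 SE; adjusted p = 0.735 and 0.00323). Replicates 3 and 4 of experiment 1 were high in both groups, and the arrays of experiments 2 and 3 were the lower ones in both, so the groups overlapped widely while every pair differed in the same direction. The guanylate-binding protein gene Gbp3 and the antiviral radical SAM enzyme gene Rsad2 both differed by -0.85 (adjusted p in the 4-set fit = 0.00279 and 0.00574), and both were lower in all 8 pairs. Irf7, the factor that amplifies the type I interferon response, differed by -0.52. The RNA sensor gene Ddx58 (RIG-I), the translation-blocking kinase gene Eif2ak2 (PKR), the exonuclease gene Isg20 and the tetherin gene Bst2 were also called, with differences of -0.47, -0.45, -0.57 and -0.45, and each was lower in all 8 pairs. Parp14, Samd9l, Oasl1, Oasl2, Ifit3, Rtp4, Cmpk2, Herc6 and Ddx60 were between -0.56 and -0.76. No member was higher by either test. The median of the 42 genes within the pairs was -0.90 and -1.08 in pairs 1-1 and 1-2, -0.26 and -0.02 in pairs 1-3 and 1-4, -0.53 and -0.41 in experiment 2, and -0.15 and -0.17 in experiment 3.

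The promoters of the 3 interferon-stimulated genes with the largest called differences are shown because these genes moved together and each holds the core of the interferon response element (RefSeq, GRCm38.p6, 250 bases before to 50 after a gene start, in the direction of transcription). Capitals mark GAAANNGAA on either strand. It stands here as its reverse complement, and neighbouring matches overlap. Ifit1 lies at chr19:34640639-34640938 (plus strand), Gbp3 at chr3:142559794-142560093 (plus strand) and Rsad2 at chr12:26456403-26456702 (minus strand).
Ifit1: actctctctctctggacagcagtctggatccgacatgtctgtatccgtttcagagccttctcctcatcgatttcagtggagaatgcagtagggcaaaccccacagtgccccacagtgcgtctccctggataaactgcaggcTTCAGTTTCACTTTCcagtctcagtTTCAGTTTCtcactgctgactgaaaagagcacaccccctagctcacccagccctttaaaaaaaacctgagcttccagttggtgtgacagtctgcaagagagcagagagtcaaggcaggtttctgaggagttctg
Gbp3: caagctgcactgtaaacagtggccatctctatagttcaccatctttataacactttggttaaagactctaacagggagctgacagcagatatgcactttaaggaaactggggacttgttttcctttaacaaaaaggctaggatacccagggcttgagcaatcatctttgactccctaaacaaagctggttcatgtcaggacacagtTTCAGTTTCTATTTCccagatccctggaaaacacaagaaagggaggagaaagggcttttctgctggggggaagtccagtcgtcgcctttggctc
Rsad2: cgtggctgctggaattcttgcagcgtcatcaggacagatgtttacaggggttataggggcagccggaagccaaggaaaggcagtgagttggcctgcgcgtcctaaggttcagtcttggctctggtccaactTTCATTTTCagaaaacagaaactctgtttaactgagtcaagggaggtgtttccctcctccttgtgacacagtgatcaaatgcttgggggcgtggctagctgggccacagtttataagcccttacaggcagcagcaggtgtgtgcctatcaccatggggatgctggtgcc
The first bases of the matches were 109, 103 and 84 bases before the start in Ifit1, 44 and 38 before it in Gbp3, and 119 before it in Rsad2. These letters occurred in 2317 of 27025 mouse promoters of this length (8.57%), in 16 of the 30 interferon-stimulated genes with a promoter in the table (53.3%), and in 10 of 16 that were lower by the 4-set test (62.5%). A match is a run of letters and not a measured binding site.

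Of genes of DC maturation and costimulation, all 22 were below 0, with a median of -0.30, and 7 were lower and 0 higher by the 4-set test (Cd40, Cd80, Fscn1, Ccl22, Il15ra, Cd200, Slamf1). That test called 0.873% of all genes lower and 0.301% higher. Cd40, the receptor for T-cell help, had 8.20, 8.80 and 10.93 in sTM-treated arrays, against 9.08, 9.68 and 10.88 in untreated arrays (difference -0.62 ± 0.28 SE; adjusted p = 0.999 and 0.00489). The highest array of all was an sTM-treated one. Cd80, a ligand of CD28, differed by -0.51 (adjusted p = 0.932 and 0.0244), lower in 7 of 8 pairs. Its companion Cd86 differed by -0.27 and the maturation marker Cd83 by -0.52 (4-set adjusted p = 0.207 and 0.0895). For Cd83 the sets differed (adjusted p = 0.016 by limma's F test of treatment by set), with -1.25 in replicates 1 and 2 of experiment 1 and 0.14 in replicates 3 and 4. Ccr7, which guides mature DCs to lymph nodes, was lower in all 8 pairs by a mean of -0.31 but passed neither test (4-set adjusted p = 0.0662).

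All 18 NF-kB subunits, regulators and targets were below 0, with a median of -0.37. The 4-set test called 5 of them lower (Nfkb2, Nfkbie, Nfkbiz, Traf1, Icam1), and 0.873% of all genes. Nfkbie, an inhibitor that NF-kB itself induces, had 8.70, 9.43 and 9.98 in sTM-treated arrays, against 9.47, 9.93 and 10.22 in untreated arrays (difference -0.46 ± 0.14 SE; adjusted p = 0.828 and 0.0206). It was lower in all 8 pairs, as was the adaptor gene Traf1 (-0.54). Of the sequences NF-kB can bind, only the exact letters GGGACTTTC and GGGAATTTC were searched, on either strand. They were in 168 of 27025 promoters (0.622%), in 1 of 16 members with a promoter in the table and in 0 of the 4 called ones. Variants of these letters were not searched, so the counts do not show that the called genes lack NF-kB sites.

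Of 27 genes tied to regulatory or tolerogenic DCs, 21 were below 0, the median was -0.22, and 3 were lower and 0 higher by the 4-set test. Lower by that test were 0.873% of all genes, and higher 0.301%. Aldh1a2, the retinoic acid-forming enzyme of tolerogenic DCs, had 10.16, 10.87 and 11.91 in sTM-treated arrays, against 11.07, 11.91 and 12.15 in untreated arrays (difference -0.75 ± 0.18 SE; adjusted p = 0.585 and 0.0167). Itgb8, an integrin chain that activates latent TGF-β, had 6.14, 7.22 and 10.32 in sTM-treated arrays and 7.50, 9.31 and 10.68 in untreated arrays. Its difference of -1.45 ± 0.47 (SE; adjusted p = 0.908 and 0.00716) was made up of -2.19, -0.26, -0.43 and -2.93 in the 4 sets, and the sets differed (adjusted p = 1.02e-05 by limma's F test). Nos2, the inducible nitric oxide synthase, differed by -0.64 and was lower in 7 of 8 pairs. Stat5a, which relays the GM-CSF signal, was the only 1 of 17 genes of the GM-CSF receptor and its feedback to be called (-0.48, 4-set adjusted p = 0.0366).

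Of 31 mitosis genes 30 were above 0, with a median of 0.36, and 4 were higher and 0 lower by the 4-set test. That test called 0.301% of all genes higher and 0.873% lower. Ccna2, the cyclin A2 of S phase and G2, had 5.87, 7.56 and 10.13 in sTM-treated arrays, against 5.85, 6.97 and 8.74 in untreated arrays (difference 0.64 ± 0.59 SE; adjusted p = 0.999 and 0.0355). The levels within each group ranged over more than 2 units, since the experiments differed in level, and the 4-set error was 0.15. Nuf2, of the kinetochore, was higher in all 8 pairs (0.56), and Aurkb and Kif20a in 7 of 8 (0.54 and 0.56). Of 31 DNA replication genes 29 were above 0, with a median of 0.22, and Mcm7, of the replicative helicase, was called higher (0.57). The mitosis median was 1.01 and 0.59 in pairs 1-1 and 1-2 and 0.64 and 0.57 in pairs 3-1 and 3-2, whereas in the other 4 pairs it was between -0.06 and 0.01. Called higher within their own set were 19 of the 31 mitosis genes in replicates 1 and 2 of experiment 1 and 6 in experiment 3. Of all genes, 1.57% and 0.522% were called higher in these 2 sets.

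Granulocyte genes were mixed. Of 26 markers, 21 were above 0, the median was 0.23 and was positive in all 8 pairs, and 5 were higher and 1 lower by the 4-set test. The shares of all genes were 0.301% higher and 0.873% lower. S100a8, a subunit of calprotectin, had 8.60, 9.77 and 10.81 in sTM-treated arrays, against 7.95, 8.84 and 9.62 in untreated arrays (difference 0.90 ± 0.31 SE; adjusted p = 0.936 and 0.00422). Its partner S100a9 was higher in all 8 pairs by 0.89. Ltf (lactoferrin of the secondary granules), Cebpe (the factor of terminal granulocyte differentiation) and Cd177 differed by 0.58, 0.54 and 0.43, each higher in 8 of 8 pairs. Mmp9, a gelatinase that activated myeloid cells make as well, went the other way (-0.46, lower in 8 of 8 pairs). The granule genes Lcn2 and Mmp8, the granulocyte marker Stfa3 and the G-CSF receptor gene Csf3r differed by -0.09, -0.02, -0.26 and -0.24. None of them was called, and neither were the primary granule genes Elane and Mpo. The mean level of the 26 markers was 7.78 to 8.66 over sTM-treated arrays and 7.77 to 8.27 over untreated arrays. In bulk samples fewer cells of a type and less RNA per cell cannot be told apart. The part of granulocyte content in the differences of inflammatory and cell division genes was not tested.

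Among 20 eosinophil, mast cell and basophil genes, 2 were higher and 1 was lower by the 4-set test, with a median of 0.06. Higher by that test were 0.301% of all genes, and lower 0.873%. Prg2, the eosinophil major basic protein, was higher in all 8 pairs by 0.67 (4-set adjusted p = 0.0109). Mcpt1, a mast cell protease, had 4.56, 4.97 and 7.56 in sTM-treated arrays, against 4.12, 4.58 and 5.46 in untreated arrays (difference 0.72, adjusted p = 0.925 and 0.0324). Its difference was 1.69 in experiment 3 and 0.07 to 0.57 elsewhere. Hdc, which makes histamine from histidine and which activated macrophages and DCs also express, was lower in all 8 pairs by -1.06 ± 0.26 (SE; adjusted p = 0.585 and 0.00279).

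**Figure D3:**
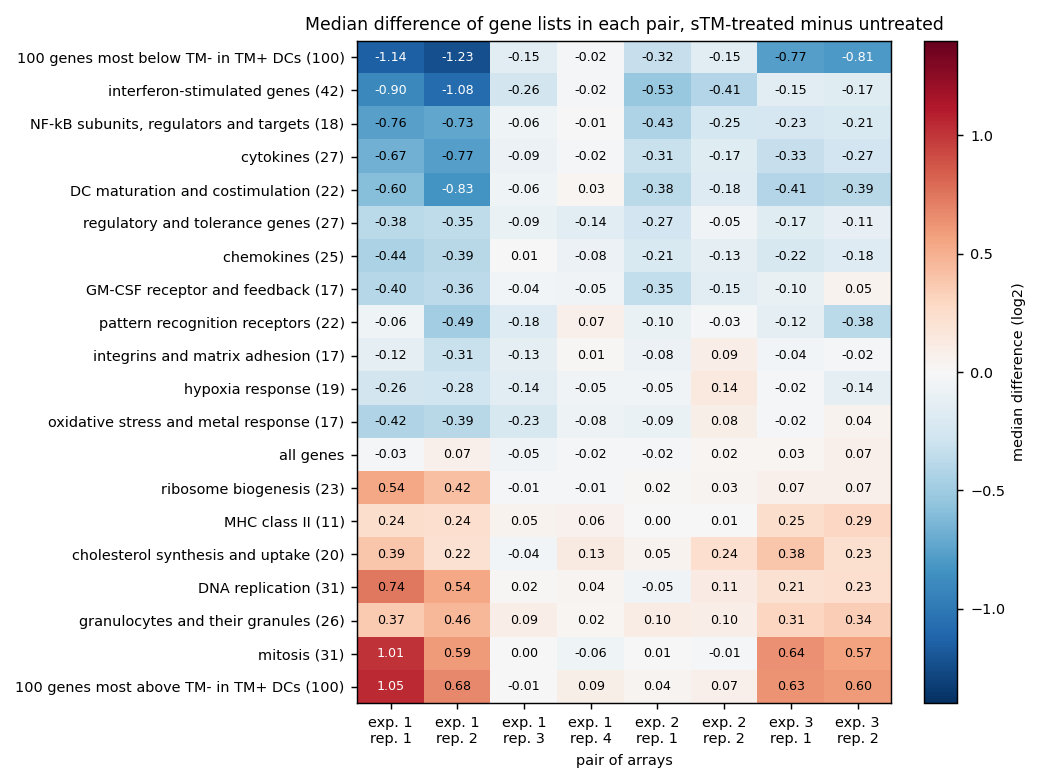
Median log2 difference (sTM-treated minus untreated) over the members of each gene list within each of the 8 pairs. The interferon-stimulated, cytokine, NF-kB and maturation lists are lowest in pairs 1-1 and 1-2 and nearest 0 in pair 1-4, and the granulocyte median is above 0 in all 8 pairs.

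Of 13 genes of the thrombomodulin and protein C pathway, 0 were higher and 2 were lower by the 4-set test, with a median of 0.05. That test called 0.301% of all genes higher and 0.873% lower. Thbd, the gene of thrombomodulin, had 5.93, 6.24 and 6.82 in sTM-treated arrays, against 5.70, 6.36 and 6.58 in untreated arrays (difference 0.05 ± 0.11 SE; adjusted p = 0.999 and 0.899). It was higher in 4 pairs and lower in 4. Procr, the endothelial protein C receptor, had 10.19, 11.28 and 11.73 in sTM-treated arrays, against 11.48, 11.75 and 12.13 in untreated arrays (difference -0.65 ± 0.21 SE; adjusted p = 0.907 and 0.00422). It was lower in all 8 pairs, from -0.32 in replicates 3 and 4 of experiment 1 to -1.25 in replicates 1 and 2. The sphingosine-1-phosphate receptor gene S1pr3 was lower in all 8 pairs by -0.48 (4-set adjusted p = 0.0479), while S1pr1 differed by 0.19 and was not called. Of 17 coagulation and fibrinolysis genes only F3, the tissue factor that starts clotting, was called (-0.82 ± 0.41 SE; adjusted p = 0.999 and 0.0167), lower in 7 of 8 pairs, and F5 differed by 0.13.

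Of 29 arachidonic acid genes, 1 was higher and 2 were lower by the 4-set test, with a median of 0.02. The shares of all genes in that test were 0.301% higher and 0.873% lower. Alox15, the 12/15-lipoxygenase, had 7.27, 8.44 and 10.79 in sTM-treated arrays, against 6.72, 7.87 and 9.91 in untreated arrays. It was higher in all 8 pairs, by 0.44 to 0.92 in the 4 sets, with a difference of 0.64 whose error was 0.51 in the experiment-block fit (adjusted p = 0.999) and 0.10 in the 4-set fit (adjusted p = 0.00279). Alox5, which starts leukotriene synthesis, differed by 0.10, and the lipoxygenase gene Alox12 by -0.40 (adjusted p = 0.936 and 0.173). Ptgs2, the inducible cyclooxygenase, and Ptges, the prostaglandin E synthase, differed by -0.53 and -0.59 and were lower in 7 of 8 pairs each (4-set adjusted p = 0.0406 and 0.0371).

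Of 11 MHC class II genes, 9 were above 0, the median was 0.14, and 1 passed the 4-set test. This was H2-DMa, which helps load peptide (0.38, 4-set adjusted p = 0.0413). Higher by that test were 0.301% of all genes. H2-Aa, H2-Ab1 and H2-Eb1 differed by 0.25, 0.28 and 0.29, higher in 7 of 8 pairs each but not called. All 20 genes of cholesterol synthesis and uptake were above 0, with a median of 0.21, and 0 were called in the 4-set fit, with 2 higher at an unadjusted p of 0.05 in the experiment-block fit. For all genes, 1.95% were higher at that unadjusted p. Fdft1, the squalene synthase, was higher in all 8 pairs by 0.28 (4-set adjusted p = 0.0958). The coatomer gene Copa and the protease inhibitor gene Serpinb8 differed by -0.02 and -0.16 and were not called, and neither were the mannose receptor Mrc1 (0.48) and the chemokine receptor Cxcr4 (0.23). Kmo, an enzyme of tryptophan breakdown and one of the conventional DC markers, was higher in all 8 pairs (0.57, 4-set adjusted p = 0.0167).

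Single members of other lists were called in the 4-set fit. That fit called 0.301% of all genes higher and 0.873% lower. Among pattern recognition receptors and their regulators, the inflammasome gene Nlrp3 and the signalling brake gene Irak3 were lower (-0.45 and -0.44), 2 of 22. Of 27 genes of the amino acid stress response, 3 were lower, among them the stress cofactor gene Nupr1 (-0.54, lower in 8 of 8 pairs). Of 17 integrin and adhesion genes, Itga5, the fibronectin receptor chain, was lower by -0.62 beside Itgb8, and Itgae was higher. The complement gene C1qb, also a macrophage marker, was higher (0.57, in 6 of 8 pairs), at 1.03 and 1.02 in replicates 1 and 2 of experiment 1 and in experiment 3, but -0.03 in experiment 2. Cd93, a relative of thrombomodulin in the lectin-like family, was higher (0.52, in 7 of 8 pairs), and the C-type lectin gene Clec4a1 was lower (-0.65). Scd1, the stearoyl-CoA desaturase, was higher in all 8 pairs by 0.47, with 1.18 in experiment 3 and 0.15 to 0.36 in the other sets.

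Lists of basic cell functions had few or no members called. The 4-set fit called only 0.301% of all genes higher and 0.873% lower. At these shares, 0 calls in a short list do not show that a function was unchanged. Glycolysis, oxidative phosphorylation, the unfolded protein response, heat shock proteins, lysosome genes and the COPI and COPII coats had medians between -0.04 and 0.09 with 0 members called in the 4-set fit. Ribosome biogenesis had a median of 0.12 with 19 of 23 genes above 0 and 0 called, and 6 were higher within replicates 1 and 2 of experiment 1, where the pair medians were 0.54 and 0.42. In that set 1.57% of all genes were higher. The hypoxia response had a median of -0.12 with 1 of 19 genes lower (P4ha2, a collagen prolyl hydroxylase, -0.36).

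The difference between experiments was tested in itself. Treatment by experiment gave 1 gene at an adjusted p of 0.05 by limma's F test (0.00502%), with 658 at an unadjusted p of 0.05. This was Atp1b1, a subunit of the sodium-potassium pump, which differed by -1.88 in experiment 3 and by -0.20 and 0.21 in experiments 1 and 2 (adjusted p of the difference = 0.0206). Experiment 3 on its own, in a fit of the 6 means of experiment and treatment, had 4 genes higher (0.0201%) and 4 lower (0.0201%). Among the higher ones were the mast cell proteases Mcpt1 and Mcpt2 (1.69 and 2.00) and the glycosyltransferase B4galnt2 (1.30). Atp1b1, the matrix proteoglycan Vcan (-1.76) and Serpinb9b (-1.75) were among the lower ones. Mcpt1 and Mcpt2 were dim, with averages over all experiments of 5.46 and 5.31 in sTM-treated arrays and 4.74 and 4.73 in untreated arrays. These averages lay under 5.80, the 25th percentile of gene levels. Experiments 1 and 2 had 0 genes in both directions in the same limma fit of the 6 means, with 174 higher and 493 lower at an unadjusted p of 0.05 in experiment 1 and 616 and 713 in experiment 2. Between the 4 sets, 199 genes differed (0.998%). Bmp4, a TGF-β family ligand, was one of these, with -1.19 in experiment 3 and -0.02 to 0.41 elsewhere (adjusted p = 0.0039), and so were Penk, Mir155, Serpinb9b, Ereg, Il6 and Hdc, whose differences all had the same sign in the 4 sets.

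The lower and higher genes were set beside the contrast of TM+ and TM- DCs. From the sorted arrays alone (experiments 2 to 4, of which 2 and 3 are shared with the unsorted arrays), the 100 genes most below and the 100 most above TM- in TM+ DCs were taken as 2 lists. Of the 100 genes below TM- in TM+ DCs, 99 were below 0 in sTM-treated unsorted DCs, with a median of -0.59, and 61 were lower and 0 higher by the 4-set test, which is 61% of the list and 35.1% of the 174 lower genes. The called ones include Itgb8, Il6, Il12b, Ptgs2, Penk, Cxcl5, Mir155 and Procr. That test called 0.873% of all genes lower and 0.301% higher. For 58 of these 100 genes the effect differed between the 4 sets (adjusted p under 0.05, limma's F test), against 0.998% of all genes. Of the 100 genes above TM- in TM+ DCs, all were above 0, with a median of 0.39, and 16 were higher and 0 lower, which is 16% of the list and 26.7% of the 60 higher genes. The called ones include Ccna2, Nuf2, Alox15 and S100a8. By the same F test, 26 genes of this higher list differed between the 4 sets. In experiment 1, which has no sorted arrays, the median of the lower list was -1.14 and -1.23 in pairs 1-1 and 1-2 and -0.15 and -0.02 in pairs 1-3 and 1-4. The median of the higher list was 1.05 and 0.68 in pairs 1-1 and 1-2 and -0.01 and 0.09 in pairs 1-3 and 1-4. Sorted cells did not show the same sTM effect on the lower list. Its median for experiment 3 was -0.80 (unsorted), 2.01 (TM+) and 0.13 (TM-), and for experiment 4 -0.26 (TM+) and -0.09 (TM-). The higher list had 0.60 (unsorted), -0.17 (TM+) and -0.03 (TM-) for experiment 3, and -0.06 (TM+) and 0.355 (TM-) for experiment 4.

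**Figure D4:**
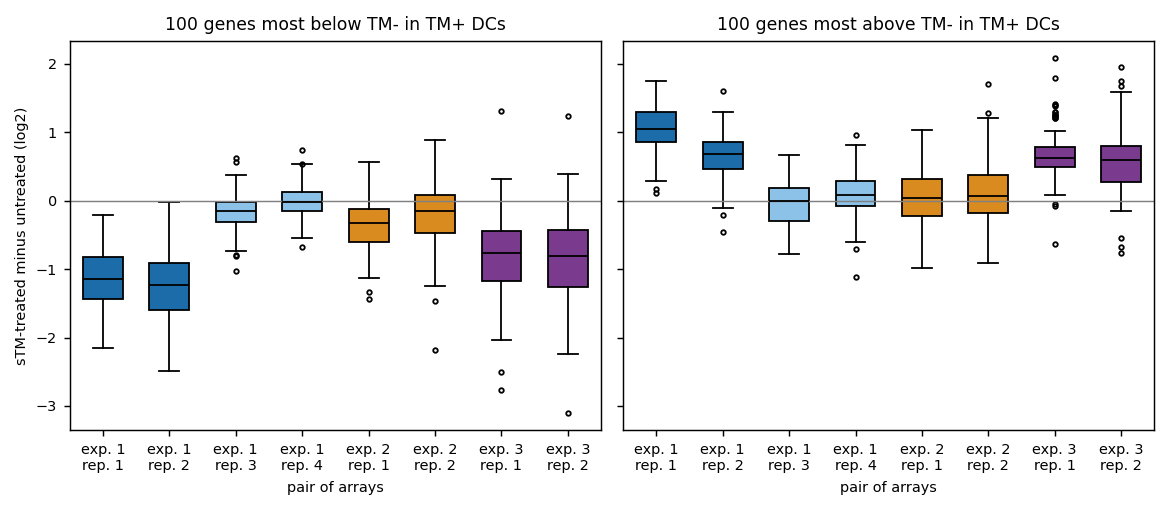
Log2 difference (sTM-treated minus untreated unsorted DCs) in each of the 8 pairs for the 100 genes most above and the 100 most below TM- in TM+ DCs. The lower list has medians from -0.02 in pair 1-4 to -1.23 in pair 1-2, and the higher list from -0.01 in pair 1-3 to 1.05 in pair 1-1.

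The effect in unsorted DCs was then set against that in sorted DCs. The difference between the sTM effect in unsorted DCs and the mean sTM effect in TM+ and TM- DCs, tested over all 36 arrays with experiment as a random block, gave 3 genes higher (0.015%) and 7 lower (0.0351%). Untreated sorted arrays were in experiments 3 and 4 only, and experiment 4 had no unsorted arrays. Part of this contrast is therefore a comparison between experiments. The mean also weights TM+ and TM- DCs equally, whatever their shares of the culture. Azin2, of polyamine metabolism, differed by -0.43 in unsorted and 0.57 in sorted DCs (difference of effects -0.999 ± 0.17 SE, adjusted p = 0.0133). Hpgds, which makes prostaglandin D2, differed by 0.14 in unsorted and -1.22 in sorted DCs (1.36 ± 0.24 SE, adjusted p = 0.0184). Cxcl5 and Ifih1, both lower in unsorted DCs, differed by 0.79 and 0.53 in sorted DCs (adjusted p = 0.0241 for each difference of effects), and Ccnf, higher in unsorted DCs, differed by -0.47 (adjusted p = 0.0241). With experiment 3 alone, the only one with all 6 groups, the counts were 485 higher and 932 lower.

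In experiment 3 several lists had medians of opposite sign in unsorted and TM+ DCs. For the interferon-stimulated, NF-kB and granulocyte lists, the TM- median was opposite to the unsorted one as well. The median of the interferon-stimulated genes was -0.16 in unsorted, 1.42 in TM+ and 1.11 in TM- DCs. That of the NF-kB genes was -0.19 in unsorted, 0.89 in TM+ and 0.27 in TM- DCs. The granulocyte median was 0.31 in unsorted, -0.46 in TM+ and -0.11 in TM- DCs. Il6 differed by -1.96 in unsorted, 3.47 in TM+ and -0.66 in TM- DCs. Experiment 4 has no unsorted arrays, and there the median of the interferon-stimulated genes had the opposite sign to experiment 3, at -0.29 for TM+ DCs and -0.35 for TM- DCs. The NF-kB median also had the opposite sign, at -0.19 for TM+ and -0.06 for TM- DCs. The granulocyte median kept its sign, at -0.30 for TM+ and -0.05 for TM- DCs.

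**Figure D5:**
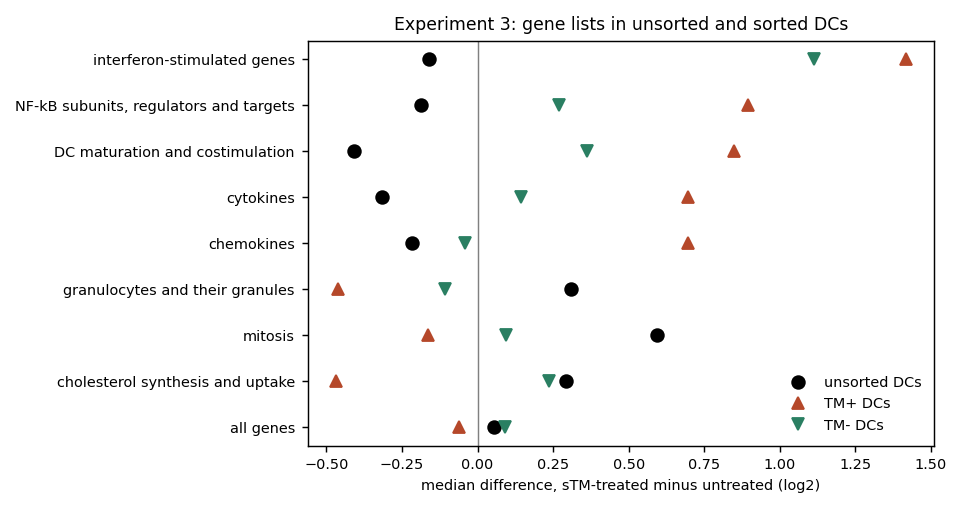
Median log2 difference (sTM-treated minus untreated) of each gene list in unsorted, TM+ and TM- DCs of experiment 3 (2 arrays per group). The interferon-stimulated, NF-kB, cytokine and maturation lists are below 0 in unsorted and above 0 in TM+ DCs, and the granulocyte and mitosis lists are above 0 in unsorted and below 0 in TM+ DCs. In these lists TM- DCs have the sign of TM+ DCs, except for mitosis (0.09 in TM- DCs).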

How the data were processed

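Unsorted bone marrow-derived DCs were profiled on Affymetrix Mouse Gene 1.0 ST arrays. The authors normalized the arrays by RMA and deposited linear-scale intensity values for every transcript cluster, and no column was left unused (0 columns not used). Each intensity was taken to log2, and 1 transcript cluster was kept per gene symbol, giving 19938 genes. Differences were fitted with limma 3.58.1 in R 4.3.3 (statmod 1.5.0), with experiment as a random block by duplicateCorrelation (correlation within experiment 0.375), eBayes and Benjamini-Hochberg adjustment over all genes at 0.05. The same fit was made with 4 sets of arrays as a fixed term, within each experiment and set, for treatment by experiment and treatment by set (F tests), and over all 36 arrays for unsorted minus sorted DCs. Arrays give no read depth, so their number limits the precision. Other settings were experiment, pairing, scaling, dim-gene filter, moderation, weights, and leaving out arrays or experiments.

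The members and gene lists were chosen with earlier results of these data known. Named genes were the 12 leading in each direction with the same sign in all 8 pairs, the genes the study itself names or that led the effect in sorted DCs, up to 4 members per list, and the leading genes of the other tests; others named were chosen after their values were seen. Of 941 list entries, 877 had a measured gene. Of the 35 genes chosen from the study and from sorted DCs, 33 were measured. Sequences came from RefSeq (GRCm38.p6). The scripts were tested on simulated data. Figures were drawn with matplotlib 3.10.9.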

Additional observations from a re-analysis of the deposited data

Results flagged for a closer look

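Tnf in untreated arrays had 1 array apart from the others. Replicate 1-4 was at 9.82 and the next array at 9.495, a gap of 0.609 of the range of the 8 arrays, above Dixon's critical value for that number of arrays. It was 1 of 112 groups of 8 arrays examined, and chance gives about 1 in 20.

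The sTM effect on Atp1b1 differed between experiments (adjusted p = 0.0206 by limma's F test), with -1.88 in experiment 3. The effects on Penk (adjusted p = 0.00259), Mir155 (0.0183), Serpinb9b (0.00325) and Ereg (0.00396) differed between the 4 sets of arrays. All 4 genes were lower in every set, and least so in replicates 3 and 4 of experiment 1 or in experiment 2.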

How the results depend on the processing

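The number of calls depended on how the arrays were blocked. For the effect with experiment as a random block (0 higher, 0 lower), the replicate block gave 11 higher and 42 lower, the same block as a random effect 4 lower, centring on the 75th percentile 1 lower, array weights 4 lower, the 4 sets as a fixed term 60 higher and 174 lower, the 4 sets as a random block 6 higher and 32 lower, and the data without replicates 3 and 4 of experiment 1 58 higher and 168 lower. Leaving out 1 array at a time gave 0 higher and 0 to 5 lower, with 5 without sTM-treated 1-4 and 1 without untreated 1-4. Experiment as a fixed factor gave 0 in both directions, and so did the 3 experiment differences tested against 0.

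For the 4-set fit (60 higher, 174 lower), array weights gave 505 and 704, the replicate block 11 and 42, and leaving out replicates 1 and 2 of experiment 1 gave 0 and 4, replicates 3 and 4 of experiment 1 179 and 344, and experiment 3 2 and 24. Without 1 array, the counts were 11 and 46 (sTM-treated 1-1), 14 and 51 (sTM-treated 1-2), 112 and 318 (sTM-treated 1-4), 20 and 79 (sTM-treated 3-1), 33 and 97 (sTM-treated 3-2), 15 and 55 (untreated 1-1), 17 and 49 (untreated 1-2), 20 and 73 (untreated 3-1) and 19 and 81 (untreated 3-2). The cause was not tested.

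Within experiment 2 (0 and 0) the replicate block gave 1 lower, and leaving out 1 array gave 0 to 1 in each direction. Within experiment 3 (4 and 4), leaving out dim genes gave 2 higher, quantile normalization 1 higher, centring on the 75th percentile 0 higher and 2 lower, the replicate block 22 higher and 35 lower, and leaving out 1 array 0 to 4 higher and 1 to 5 lower. The single gene that differed between experiments became 0 with centring on the 75th percentile and 0 to 2 without 1 array. For unsorted minus sorted DCs (3 and 7), experiment as a fixed factor gave 16 and 112, and experiment 3 alone 485 and 932.

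Replicate numbers are shared by the groups, but the labels do not say that a number marks a shared culture. Deviations from the mean of each experiment and treatment correlated between arrays of the same number at 0.564 to 0.746 in experiment 1. In experiment 1 they include the 2 blocks of arrays described above, which alone make such correlations high. The values were 0.0257 in experiment 2 and 0.134 in experiment 3. With 2 arrays per group there, the 2 deviations mirror each other, so any value above 0 makes each array match its own number best. For these reasons the 7 of 8 sTM-treated arrays that correlated best with their own number do not show whether a number marks a shared culture. The median of all genes moved by at most 0.04 with scaling. The median of the amino acid stress list without experiment 2 was -0.13 and that of complement without experiment 1 0.08. The number of arrays limits the precision.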
